A study of Mus musculus with 8 samples.

Results

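The p53 pathway was followed through 34 genes in cultured mouse muscle stem cells: Trp53 itself, its partner regulators Mdm2 and Mdm4, and well known target genes in growth arrest, cell death, DNA repair and metabolism. Members were chosen by gene symbol. Each of the 34 symbols had 1 locus among the 55223 loci of the deposited expression table, and 33 members reached a mean of 0.5 TPM (transcript abundance per library, corrected for transcript length) over all 8 libraries, as did 16908 loci in all. Perp, an apoptosis-associated membrane protein, was the member below that limit, at 0.10 to 0.39 TPM with a mean of 0.187, and it entered no test. The members just above it were Fas at a mean of 0.751 TPM, Pltp at 0.789 and Ddb2 at 0.851.

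Muscle stem cells (satellite cells) came from 6 to 8 week old female wild-type C57BL/6J mice. All cultures shared 2 days of growth on Matrigel followed by 6 h in serum-free medium, where 200 ng/ml of a soluble BMP receptor (BMPR-IA/ALK3-Fc) captured BMPs already present. A pulse of 1 h then followed with either BMP4 or BMP6 at 100 ng/ml, or with their solvent (vehicle, HCl at 4 mM and BSA at 0.1%). The BMP4 experiment used isolations 48 and 54 and the BMP6 experiment isolations 75 and 77, and each isolation gave 1 vehicle and 1 stimulated library, so each of the 4 groups held 2 libraries. Ligand, experiment and isolation therefore coincide: a difference between the experiments cannot be told apart from one between isolations or batches.

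p53 is a transcription factor that is kept low by the ubiquitin ligase Mdm2 and its partner Mdm4, and DNA damage or other stress releases it from them. Mdm2 is also a target gene of p53, which closes a negative feedback loop. Among the other targets are inhibitors of the cell cycle and activators of mitochondrial and receptor-driven cell death, and Cdkn1a is also raised during muscle differentiation without p53.

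Estimated depth lay between 48012825 and 58002740 reads per library. Pax7 and Myod1, markers of the labelled cells, were at 11.1 to 16.9 TPM and at 422 to 839 TPM in every library. The full list of 10 satellite cell and myoblast markers summed to 3771 to 5280 TPM in isolations 48 and 54. In isolations 75 and 77 it summed to 1468 to 1994 TPM. Between the vehicle libraries, 6 of the 10 were lower and 2 higher in isolations 75 and 77 (limma adjusted p under 0.05), beside 16.6% and 10.6% of all loci. The isolations differed in muscle differentiation: 10 such genes (Myog, Mymk, Mymx, Ckm, Acta1, Mylpf, Tnnt3, Myh3, Myh8 and Actc1) summed to 5439 to 5956 TPM in isolation 48, to 20183 to 20659 TPM in isolation 54 and to 648 to 914 TPM in isolations 75 and 77. Isolation 54 thus stood apart, also in 15 proliferation genes, which summed to 658 to 688 TPM there and to 973 to 1117 TPM in the other isolations. The 8 immune cell markers summed to 12.0 to 18.5 TPM, of which Itgam made up 10.9 to 17.1 TPM, while Ptprc, Adgre1 and Tyrobp were listed at 0 in all 8 libraries. The 6 endothelial markers summed to at most 1.34 TPM, 8 fibroblast markers to 14.1 to 26.0 TPM, and 6 pericyte and smooth muscle markers to 25.02 to 60.02 TPM in the BMP4 experiment and 9.26 to 17.9 TPM in the BMP6 experiment.

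Levels of the 33 tested members ran from 0.10 to 252 TPM in single libraries, on a scale that is per transcript length and so allows genes to be compared. Bax, the pore-forming effector of mitochondrial apoptosis, was the most abundant member at a mean of 189.8 TPM, followed by Plk2 at 124.7 and Trp53 at 85.4 TPM. Its locus (chr7:45111121-45138229, GRCm39, minus strand) also holds transcripts of Dhdh and Gm45808, but Bax transcripts made up 99.6% of the level. Phlda3, Mdm2, Ak1 and Ccng1 were also above 40 TPM on average. Xpc, Ddb2, Polk, Rrm2b and Ercc5, which act in DNA repair, damage bypass and nucleotide supply, lay between 0.58 and 6.83 TPM in every library.

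The promoters of Mdm2, Ccng1 and Bax are shown because they carry the p53 half-site in the window searched, and those of Plk2, with the largest fitted BMP change, and Btg2, with one of the largest vehicle differences, because they hold none. RefSeq promoters of GRCm38.p6, from 250 bases before to 50 bases after a start, matched 26 of the 34 members with 38 promoters; this build differs from that of the expression tables. Capitals mark the p53 half-site consensus, which was searched without mismatch and reads the same on both strands, so 1 search covered both.
Mdm2, chr10:117710709-117711008, minus strand: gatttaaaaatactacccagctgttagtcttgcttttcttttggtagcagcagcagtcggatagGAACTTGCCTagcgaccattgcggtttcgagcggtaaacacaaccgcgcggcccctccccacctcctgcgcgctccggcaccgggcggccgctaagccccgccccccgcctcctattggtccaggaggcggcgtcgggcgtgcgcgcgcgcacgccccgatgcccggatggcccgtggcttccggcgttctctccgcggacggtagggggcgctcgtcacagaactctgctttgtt
Ccng1, chr11:40755237-40755536, minus strand: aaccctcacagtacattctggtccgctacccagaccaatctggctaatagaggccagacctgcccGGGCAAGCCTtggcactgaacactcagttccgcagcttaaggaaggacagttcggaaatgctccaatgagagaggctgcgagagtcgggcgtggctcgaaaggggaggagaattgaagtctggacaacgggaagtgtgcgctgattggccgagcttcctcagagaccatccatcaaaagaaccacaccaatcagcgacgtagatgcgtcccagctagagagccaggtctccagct
Bax, chr7:45466849-45467148, minus strand: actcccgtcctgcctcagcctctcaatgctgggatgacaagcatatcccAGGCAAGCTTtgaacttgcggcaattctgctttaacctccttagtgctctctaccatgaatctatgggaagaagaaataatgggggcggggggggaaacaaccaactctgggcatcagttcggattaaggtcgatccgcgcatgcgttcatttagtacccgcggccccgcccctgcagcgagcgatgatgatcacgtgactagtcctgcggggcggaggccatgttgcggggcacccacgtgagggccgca
Plk2, chr13:110394794-110395093, plus strand: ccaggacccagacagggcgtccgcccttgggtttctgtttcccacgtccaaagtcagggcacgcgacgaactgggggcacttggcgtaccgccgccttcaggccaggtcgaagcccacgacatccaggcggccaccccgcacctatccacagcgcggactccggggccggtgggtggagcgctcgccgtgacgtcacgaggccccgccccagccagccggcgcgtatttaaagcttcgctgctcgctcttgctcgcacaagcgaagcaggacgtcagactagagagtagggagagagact
Btg2, chr1:134079106-134079405, minus strand: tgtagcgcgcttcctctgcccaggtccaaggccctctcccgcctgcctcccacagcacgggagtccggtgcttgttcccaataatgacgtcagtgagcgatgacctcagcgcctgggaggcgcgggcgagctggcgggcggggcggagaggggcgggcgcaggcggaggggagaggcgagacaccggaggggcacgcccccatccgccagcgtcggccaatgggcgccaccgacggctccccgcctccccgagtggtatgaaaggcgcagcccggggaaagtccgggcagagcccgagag
Counted from the transcription start, the half-site begins at base -186 in Mdm2, -185 in Ccng1 and -201 in Bax. It was found in 10 of the 38 member promoters (26.3%), from 9 members (Aen, Bax, Ccng1, Ei24, Gtse1, Mdm2, Polk, Sesn1 and Trp53), and in 8.36% of all 32851 promoters of that length. The Aen promoters overlap and hold the same half-site, which the 10 count for each of them. The SMAD-type motif GGCGCC, also its own reverse complement, was in 6 member promoters (15.8%) and in 11.9% of all promoters. The Gtse1 promoters also overlap and share the same GGCGCC. A partial overlap of the motifs would count for both. Member promoters had a median of 21 CpG dinucleotides and all promoters a median of 7. These matches describe letters in the window and no binding was measured.

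Whether a 1 h BMP pulse changed p53 pathway genes was asked by comparing stimulated with vehicle cultures of the same experiment. Mdm2 rose after BMP4, and passed the test only when libraries of the same isolation were paired, while no member passed it after BMP6. Trp53 and Mdm4 did not pass the test in any BMP comparison. Plk2 had the largest fitted change after either ligand, a lower level by 0.70 (BMP4) and 0.54 (BMP6) on the log2 scale, without passing the test.

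In the BMP4 comparison without pairing, 0 of the 33 members passed an adjusted p of 0.05 (limma on log2(TPM + 0.5), Benjamini-Hochberg over all 16908 loci), against 0.0237% of all loci, and 0 members had an unadjusted p under 0.05 (3.31% of all loci did). With the isolation as a block, which compares the 2 cultures of each isolation, 1 member passed (Mdm2), against 0.633% of all loci, and 6 had an unadjusted p under 0.05, as did 20.3% of all loci. After BMP6, 0 members passed without the block (0.0118% of all loci) and 0 with it (0.148%), with 0 and 1 members at an unadjusted p under 0.05 (1.26% and 5.72% of all loci). For the mean of both responses the counts were 0 (0.071% of all loci) and 0 (0.674%), with 1 and 6 members at an unadjusted p under 0.05 (2.4% and 13.4% of all loci). Voom on estimated reads also called 0 members in these comparisons without the block (0.0118% to 0.0828% of all loci). With the block, voom called 3 after BMP4 (Mdm2, Plk3 and Pmaip1, against 6.15% of all loci). It called 0 after BMP6 (0.432% of all loci) and 1 in the mean response (Mdm2, against 2.05% of all loci).

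After BMP4, 11 members were higher in both isolations (28.3% of all loci were) and 8 lower in both (35% of all loci); after BMP6, 8 were higher in both (26.7%) and 12 lower in both (27.1%). The median difference over the 33 members was 0.01 on the log2 scale after BMP4 and -0.02 after BMP6, beside medians of -0.02 and -0.0021 over all loci. By isolation, the member changes ran from -0.56 to 0.72 in isolation 48, from -1.36 to 0.66 in isolation 54, from -0.54 to 0.34 in isolation 75 and from -0.55 to 0.28 in isolation 77. A change over 0.5 in size was seen in 2 members after BMP4 and 1 after BMP6, where 4.39% and 2.57% of all loci moved that far. The median size of a member's change, in either direction, was 0.21, 0.15, 0.07 and 0.09 in isolations 48, 54, 75 and 77, beside 0.13, 0.12, 0.07 and 0.08 over all loci, as the plot of changes by isolation shows for each member.

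**Figure D1:**
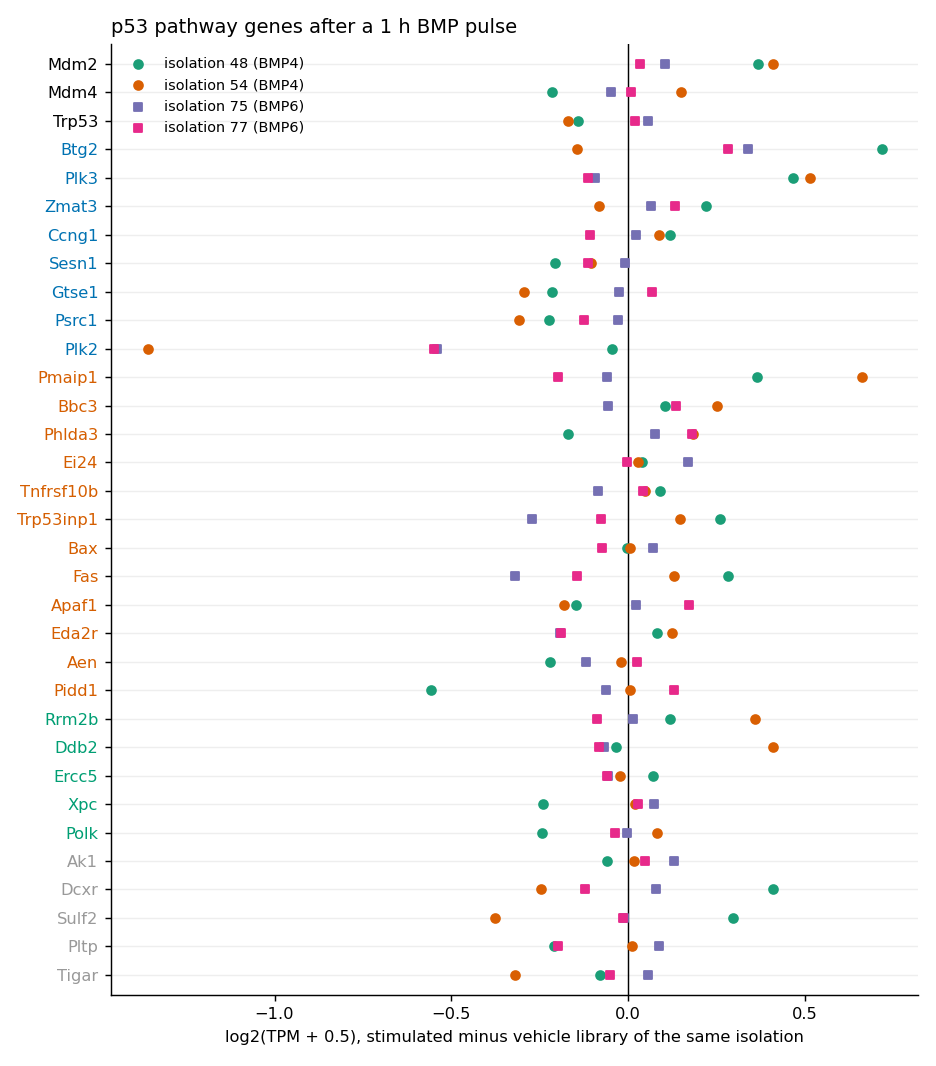
Change of each of the 33 tested members in each isolation, as log2(TPM + 0.5) of the stimulated minus the vehicle library; circles are the BMP4 isolations 48 and 54, squares the BMP6 isolations 75 and 77, and gene names are coloured by role (from the top: core, arrest and growth control, cell death, DNA repair and nucleotide supply, metabolism and other). Mdm2 lies right of 0 in all 4 isolations, while Plk2 lies left of 0 in all 4 and reaches -1.36 in isolation 54.

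Mdm2 (chr10:117524780-117546663, GRCm39, minus strand) was at 39.9 TPM without and 51.6 TPM with BMP4 in isolation 48, and at 51.4 and 68.5 TPM in isolation 54. It was at 49.4 and 53.2 TPM without and with BMP6 in isolation 75, and at 45.6 and 46.7 TPM in isolation 77. The stimulated library was the higher of its pair in all 4 isolations, and the groups did not overlap after BMP4, by a margin of 51.4 to 51.6 TPM, but overlapped after BMP6. The log2 change after BMP4 was 0.39 with an SE of 0.041 in the blocked fit (limma adjusted p = 0.0420) and an SE of 0.185 without the block (adjusted p = 1.00). In the blocked fit the call was lost with isolation 48, 54, 75 or 77 left out. Without isolation 48 or 54, lower levels of other members passed that had not passed in the full fit. Each of these fits keeps 1 pair for 1 of the ligands and takes its spread from the pairs of the other. Their p values are therefore not given. After BMP6 the change was 0.07 (blocked SE 0.041, adjusted p = 0.987), and the mean of both responses was 0.23 (blocked SE 0.029, adjusted p = 0.0675).

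How far the Mdm2 response differed between the ligands was not resolved: the difference, BMP6 minus BMP4, was -0.32 with an SE of 0.262 (adjusted p = 1.00) and, blocked, an SE of 0.058 (adjusted p = 0.261). Mdm2 was the member among 33 that was higher in all 4 isolations, a pattern shared by 8.19% of all loci. Its 2 annotated transcripts span the same region, and the authors' assignment of reads between them was uneven. The longer one held 2.83% of the Mdm2 level in the vehicle and 53.2% in the BMP4 library of isolation 48, while it held 31.5% and 39.8% in isolation 54 and 33.8% to 35.5% in isolations 75 and 77. The vehicle library of isolation 48 thus stood apart in this split, which was not tested.

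Trp53 (chr11:69471185-69482699, GRCm39, plus strand) was at 88.9 and 54.5 TPM in the vehicle libraries of isolations 48 and 54, and at 80.6 and 48.4 TPM after BMP4. It was at 110.2 and 92.5 TPM in the vehicle libraries of isolations 75 and 77, and at 114.6 and 93.7 TPM after BMP6. Stimulated libraries were thus slightly below their vehicle in the BMP4 isolations and slightly above in the BMP6 isolations. The log2 changes were -0.15 (blocked SE 0.035, limma adjusted p = 0.130) and 0.04 (blocked adjusted p = 1.00). The transcript Trp53-203 held 63.2% to 86.4% of the level in each library. Mdm4 was at 21.8 and 13.1 TPM in the vehicle libraries of isolations 48 and 54, at 18.7 and 14.5 TPM after BMP4, at 20.8 and 22.8 TPM in the vehicle libraries of isolations 75 and 77, and at 20.1 and 23.0 TPM after BMP6. Its values overlapped in both comparisons, with fitted log2 changes of -0.03 and -0.02.

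Plk2 and Plk3 encode polo-like kinases that respond to stress. Plk2 (chr13:110531580-110537378, GRCm39, plus strand) was at 81.8 TPM without and 79.3 TPM with BMP4 in isolation 48, and at 97.1 and 37.6 TPM in isolation 54. It was at 229 and 157 TPM without and with BMP6 in isolation 75, and at 187 and 128 TPM in isolation 77. The stimulated library was the lower in all 4 isolations, and the groups did not overlap after either ligand, although the gap in isolation 48 was small. The change was -0.70 after BMP4 (SE 0.336, adjusted p = 1.00; blocked SE 0.298, adjusted p = 0.277) and -0.54 after BMP6 (blocked adjusted p = 0.983). The mean response was -0.62 with an SE of 0.238, an unadjusted p of 0.0368 and an adjusted p of 1.00. The size after BMP4 rested on isolation 54: it was -1.36 there and -0.05 in isolation 48. The BMP6 pairs differed by -0.54 and -0.55 in isolations 75 and 77. Blocked fits without isolation 48 or 54 keep 1 BMP4 pair and take their spread from the BMP6 pairs alone. No test from those fits is given.

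Plk3 was at 4.15 and 2.24 TPM in the vehicle libraries of isolations 48 and 54 and at 5.93 and 3.41 TPM after BMP4. It was at 10.5 and 8.67 TPM in the vehicle libraries of isolations 75 and 77 and at 9.84 and 7.98 TPM after BMP6. The stimulated library was the higher of both BMP4 pairs and the lower of both BMP6 pairs. The log2 changes were 0.49 (blocked SE 0.069, adjusted p = 0.0729) and -0.10 (blocked adjusted p = 1.00), and their difference was -0.59 (SE 0.467, adjusted p = 1.00; blocked SE 0.098, adjusted p = 0.255). Psrc1, a microtubule-associated protein, and Sesn1, a sestrin that restrains mTORC1, were like Plk2 lower in all 4 isolations, a pattern of 3 members (9.09%) and of 9.2% of all loci. The lowest of their changes was -0.31 for Psrc1 in isolation 54 and -0.21 for Sesn1 in isolation 48.

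Btg2, an antiproliferative adaptor of mRNA deadenylation, was at 7.86 and 20.5 TPM in the vehicle libraries of isolations 48 and 54 and at 13.2 and 18.5 TPM after BMP4. It was at 2.65 and 3.28 TPM in the vehicle libraries of isolations 75 and 77 and at 3.49 and 4.09 TPM after BMP6. The BMP6 libraries were both above both vehicle libraries, whereas the BMP4 pairs differed in opposite directions. The log2 changes were 0.29 (blocked SE 0.205, adjusted p = 0.480) and 0.31 (blocked adjusted p = 1.00). Of the other arrest genes, the Ccng1 (cyclin G1) pairs differed by 0.12, 0.09, 0.02 and -0.11 in isolations 48, 54, 75 and 77. In the same order, Zmat3 (an RNA-binding zinc finger protein) differed by 0.22, -0.08, 0.07 and 0.13. Gtse1 differed by -0.22, -0.29, -0.03 and 0.07, and its fitted change after BMP4 was -0.26 (blocked SE 0.054, limma adjusted p = 0.123).

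Pmaip1 and Bbc3 encode Noxa and Puma, BH3-only proteins that release the mitochondrial death pathway. Pmaip1 was at 14.7 and 26.4 TPM in the vehicle libraries of isolations 48 and 54 and at 19.1 and 42.0 TPM after BMP4, and at 26.4 and 44.0 TPM in the vehicle libraries of isolations 75 and 77 and at 25.3 and 38.3 TPM after BMP6. The BMP4 pairs differed by 0.37 and 0.66 and the BMP6 pairs by -0.06 and -0.20, so the direction was the same within a ligand and opposite between ligands. The fitted changes were 0.51 (SE 0.474; blocked SE 0.085, adjusted p = 0.0914) and -0.13, and the difference between ligands was -0.64 (SE 0.671; blocked SE 0.120, adjusted p = 0.264). The Bbc3 pairs differed by 0.10 and 0.25 after BMP4 and by -0.06 and 0.14 after BMP6. The plot of paired levels shows these pairs beside those of Mdm2 and Plk2.

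**Figure D2:**
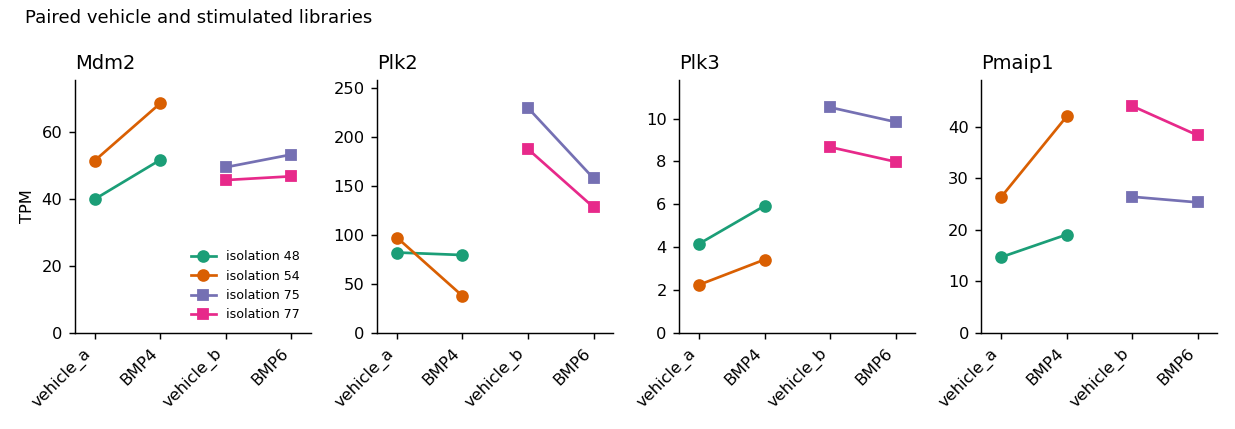
TPM of Mdm2, Plk2, Plk3 and Pmaip1 in each library; a line joins the vehicle and the stimulated library of 1 isolation (vehicle_a and BMP4 for isolations 48 and 54, vehicle_b and BMP6 for isolations 75 and 77). Mdm2 goes up along both BMP4 lines (39.9 to 51.6 and 51.4 to 68.5 TPM), and Plk2 goes down along all 4 lines, hardly so in isolation 48 (81.8 to 79.3 TPM).

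The other cell death members passed no BMP test. Bax was at 179 and 179 TPM in isolation 48, at 141 and 142 TPM in isolation 54, at 241 and 252 TPM in isolation 75 and at 197 and 187 TPM in isolation 77, without and with BMP. Fas, the death receptor, was at 0.84 and 1.48 TPM in the vehicle and 1.13 and 1.67 TPM in the BMP4 libraries of isolations 48 and 54, and at 0.24 and 0.31 TPM in the vehicle and 0.10 and 0.23 TPM in the BMP6 libraries of isolations 75 and 77. Fas was the higher in both BMP4 and the lower in both BMP6 libraries of a pair, at levels near the limit of 0.5 TPM. Pidd1, scaffold of the caspase-2 activating complex, was at 4.62 TPM without and 2.98 TPM with BMP4 in isolation 48, and its other pairs differed by 0.13 or less on the log2 scale. Eda2r, a receptor of the TNF receptor family, was higher by 0.08 and 0.12 in the BMP4 isolations and lower by 0.19 in both BMP6 isolations, and its blocked adjusted p of 0.714 was the smallest of the members after BMP6. The repair and metabolism members passed no test in a BMP comparison; their widest pair changes were 0.41 for Ddb2, a damage sensor, in isolation 54 and 0.41 for Dcxr, a carbonyl reductase, in isolation 48.

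For the difference between the ligand responses, 0 members passed with or without the block, as did 0% of all loci, and 0 members without and 7 with the block had an unadjusted p under 0.05, beside 1.44% and 13.3% of all loci. Voom called 0 members without and with the block, beside 0% and 0.177% of all loci. A change that passed after BMP4 and not after BMP6 is therefore not shown to differ between the ligands. A missed threshold does not show equal levels either. In simulated data with 2 libraries a group, 200 of 16908 loci were changed. Without the block, the BMP4 comparison recovered 22.5% of loci changed by 1 on the log2 scale and 81% of those changed by 2. With the block it recovered 0% and 53.5%. The simulated libraries shared no variation within an isolation, which is what the block removes. The blocked shares therefore do not describe the blocked fit of the real libraries. The unblocked shares hold for independent libraries and may differ for the real pairs, which were correlated.

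Unstimulated cultures of the experiments differed much more than stimulated from unstimulated cultures. In the vehicle comparison 9 of 33 members passed the test: Plk3, Bbc3 and Plk2 were higher in isolations 75 and 77, and Ak1, Btg2, Sulf2, Fas, Dcxr and Apaf1 were higher in isolations 48 and 54. This is 27.3% of the members beside 27.2% of all loci (10.6% higher and 16.6% lower), a share near the background. Fas reached the level limit only through isolations 48 and 54, where it is high, so its direction was set by that limit and its call supports nothing. By role, 2 of 8 arrest genes were higher and 1 lower, 1 of 12 cell death genes was higher and 2 lower (Apaf1 and Fas), and 3 of 5 metabolism genes were lower. None of the 3 core and 5 repair members passed. With libraries centred on their median the calls split into 4 higher and 5 lower among the members, and into 2742 higher and 2273 lower in place of 1799 and 2803 among all loci; that scaling moved the median of all loci from -0.01 to 0.09.

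**Figure D3:**
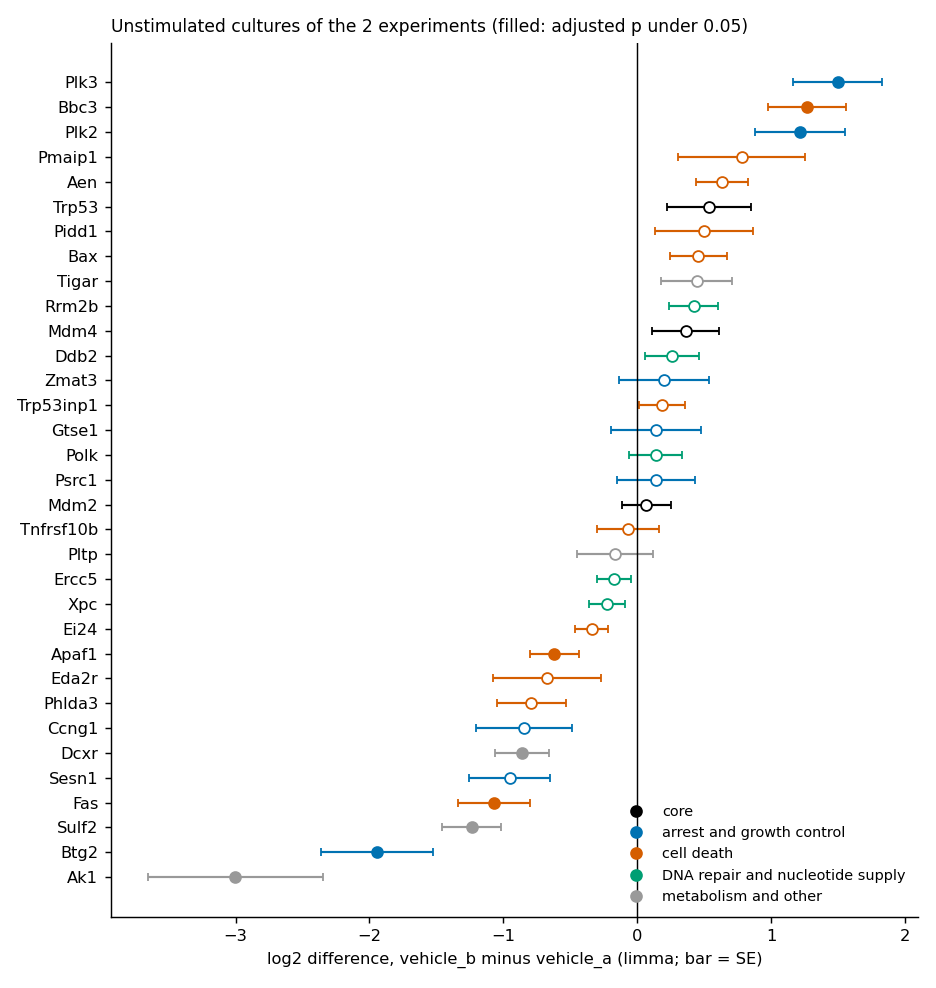
Log2 difference of the vehicle libraries of isolations 75 and 77 (vehicle_b) minus those of isolations 48 and 54 (vehicle_a) for the 33 tested members, as fitted by limma on log2(TPM + 0.5), with bars of 1 SE and filled points for an adjusted p under 0.05. Members run from Ak1 at -3.00 to Plk3 at 1.49, with 3 filled points on the right and 6 on the left. 1 of the 6 is Fas, whose direction was set by the level limit.

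Plk3 was higher in the vehicle libraries of isolations 75 and 77 by 1.49 (SE 0.330, limma adjusted p = 0.0254), with the values given above. Plk2 was higher by 1.21 (SE 0.336, adjusted p = 0.0420). Bbc3 was at 7.96 and 4.64 TPM in the vehicle libraries of isolations 48 and 54 and at 14.7 and 16.1 TPM in those of isolations 75 and 77, a difference of 1.27 (SE 0.292, adjusted p = 0.0279). All 4 libraries of isolations 75 and 77 were above all 4 of isolations 48 and 54 for these 3 genes and for Aen, Bax, Tigar and Trp53 (7 members, 21.2%, where 25.9% of all loci did so). Trp53 itself was higher by 0.53 with an SE of 0.312, which did not pass (adjusted p = 0.223), and Mdm2 differed by 0.07 (SE 0.185).

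Ak1, the cytosolic adenylate kinase that is abundant in muscle, was at 42.5 and 128 TPM in the vehicle libraries of isolations 48 and 54 and at 9.63 and 8.02 TPM in those of isolations 75 and 77, a difference of -3.00 (SE 0.654, adjusted p = 0.0246). In the stimulated libraries it was at 40.8 and 130 TPM (isolations 48 and 54) and at 10.6 and 8.31 TPM (75 and 77), so its level followed the isolation with and without BMP. Btg2 was lower in isolations 75 and 77 by -1.94 (SE 0.417, adjusted p = 0.0239). Ak1, Btg2 and the muscle differentiation sum were all highest in isolation 54, next in isolation 48 and lowest in isolations 75 and 77. The part of differentiation in these differences was not tested, and in bulk libraries fewer cells of a type and less RNA per cell cannot be told apart.

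Sulf2, a heparan sulfate endosulfatase, was at 1.65 and 2.69 TPM in the vehicle libraries of isolations 48 and 54 and at 0.58 and 0.64 TPM in those of isolations 75 and 77 (difference -1.24, SE 0.222, adjusted p = 0.0164). Dcxr was at 1.94 and 2.85 TPM against 1.03 and 1.11 TPM (-0.86, adjusted p = 0.0290). Apaf1, the scaffold of the apoptosome, was at 5.07 and 5.23 TPM against 3.75 and 2.68 TPM (-0.62, adjusted p = 0.0491), and Fas, whose values are given above, was lower by -1.07, given without its test because of how it reached the level limit. Fas, Sulf2 and Dcxr are low genes, and their differences on this scale understate the ratio of their levels. After the pulse Sulf2 was at 2.14 and 1.96 TPM (BMP4) and at 0.57 and 0.63 TPM (BMP6), Dcxr at 2.74 and 2.32 and at 1.12 and 0.98 TPM, and Apaf1 at 4.53 and 4.56 and at 3.82 and 3.09 TPM. Bbc3 was then at 8.60 and 5.63 TPM (BMP4) and at 14.1 and 17.8 TPM (BMP6). The order of the experiments was thus the same with and without BMP for each of these genes.

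In all, 12 members (36.4%, beside 29.7% of all loci) were lower in all 4 libraries of isolations 75 and 77 than in all 4 of isolations 48 and 54. The 12 include Fas, whose direction was set by the level limit. Beside the 6 called ones these were Ccng1, Eda2r, Ei24, Ercc5, Phlda3 and Sesn1, whose vehicle differences, from -0.17 for Ercc5 to -0.95 for Sesn1, did not pass the test. Ccng1 was at 39.5 and 65.4 TPM in the vehicle libraries of isolations 48 and 54 and at 33.1 and 23.8 TPM in those of isolations 75 and 77, and Phlda3, an inhibitor of Akt, was at 82.2 and 77.2 TPM against 57.1 and 36.7 TPM. Ccng1, Eda2r and Sesn1 were like Ak1 highest in isolation 54. Among the vehicle libraries alone, 9 members were above and 13 below without overlap, beside 34.9% and 38.8% of all loci. A vehicle difference over 0.5 in size on the log2 scale was seen in 16 members (48.5%, beside 42.7% of all loci) and one over 1 in 7 (21.2%, beside 16.8%). Fas is also among the 13, the 16 and the 7.

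The 9 vehicle calls depended on single libraries. No member was called without the vehicle library of isolation 54 (2.48% of all loci were still called), without that of isolation 75 (0.071%) or without that of isolation 77 (0.0296%), and Sulf2 alone was called without either BMP6 library (12.1% and 12.3% of all loci). Leaving out both libraries of isolation 48 raised the number of calls, and leaving out both of isolation 54, 75 or 77 lowered it. Each of these fits left 1 vehicle library in 1 experiment. Without the vehicle library of isolation 54 the differences were -2.21 for Ak1, -1.28 for Btg2, -0.95 for Sulf2, -0.63 for Dcxr, -0.60 for Apaf1, 0.91 for Bbc3, 1.11 for Plk3 and 1.34 for Plk2. All of these were in the direction of the full fit. Fas, at -0.79, is set aside because its direction was set by the level limit.

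Other genes of the pathway were read from lists of 52 upstream regulators, further targets and family members, of which 47 were tested. Trp63 and Trp73, the family members, were at or below 0.130 TPM in every library and were not tested. In the vehicle comparison 3 of the 47 passed as higher in isolations 75 and 77 and 12 as lower, beside 10.6% and 16.6% of all loci. Cdkn1a, the p21 inhibitor of cyclin-dependent kinases and best known p53 target, was at 466 and 801 TPM in the vehicle libraries of isolations 48 and 54 and at 155 and 151 TPM in those of isolations 75 and 77, a difference of -2.00 (SE 0.349, limma adjusted p = 0.0156). After the pulse it was at 405 and 771 TPM (BMP4) and at 155 and 140 TPM (BMP6), so no BMP change passed for it (log2 -0.13 and -0.05). Like Ak1, Btg2 and the muscle differentiation sum it was highest in isolation 54 and lowest in isolations 75 and 77, as the plot of levels by isolation shows. Without the vehicle library of isolation 54 it differed by -1.61 (adjusted p = 0.0749).

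**Figure D4:**
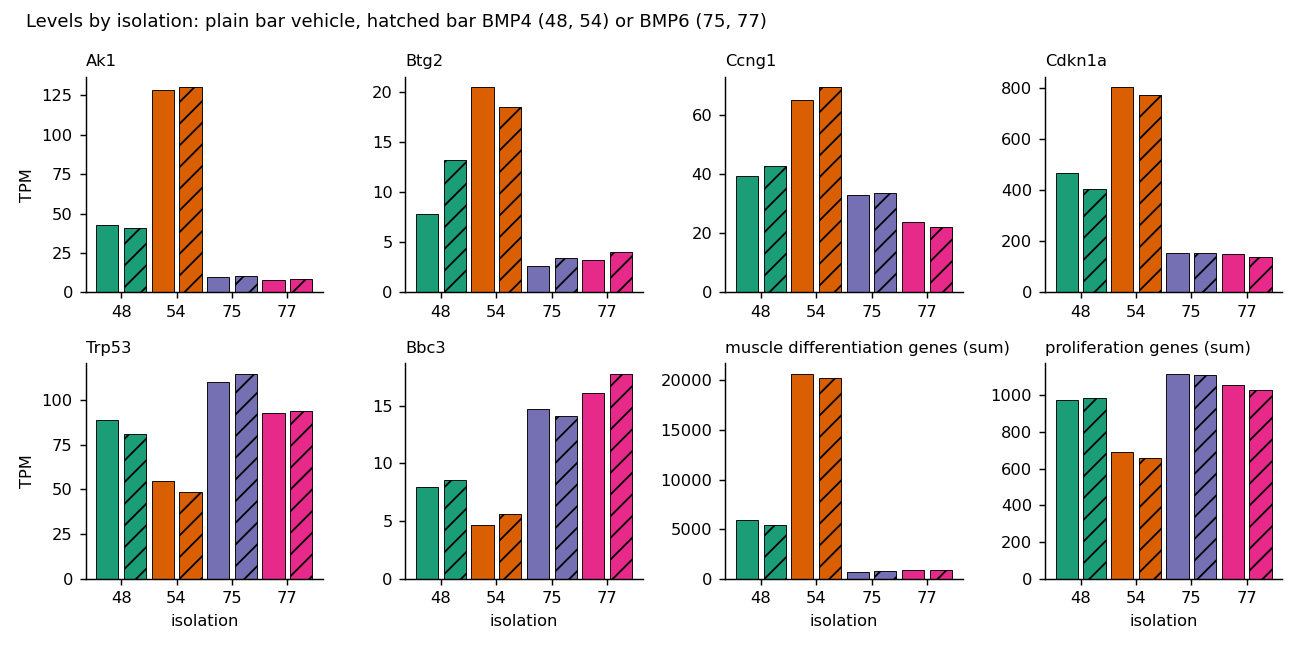
TPM of Ak1, Btg2, Ccng1, Cdkn1a, Trp53 and Bbc3 and the summed TPM of 10 muscle differentiation and 15 proliferation genes in each library; for each isolation the plain bar is the vehicle and the hatched bar the BMP4 (48, 54) or BMP6 (75, 77) library. Isolation 54 has the highest Ak1, Btg2, Ccng1, Cdkn1a and differentiation sum (20183 to 20659 TPM) and the lowest Trp53, Bbc3 and proliferation sum (658 to 688 TPM).

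The further genes lower in isolations 75 and 77 were Usp2, a deubiquitinase that stabilises Mdm2, by -2.93 (10.7 and 22.7 against 1.74 and 1.48 TPM), Zfp365 by -1.96, Thbs1 (thrombospondin) by -1.35, Dram1 (an autophagy modulator) by -1.28, Tap1 by -1.19, Trp53bp1 (a DNA damage response adaptor) by -0.99, Cd82 by -0.82, Casp9 by -0.68, Sesn3 by -0.64, Trp53i13 by -0.57 and Gpx1 by -0.52. Higher were Chek1, the checkpoint kinase, by 1.78 (6.22 and 3.09 against 13.8 and 19.4 TPM), Igfbp3 by 1.06 and Sirt1, a deacetylase of p53, by 1.02. Bid, a BH3-only protein, was higher by 2.23 but did not pass (adjusted p = 0.0569), with 7.75 and 1.79 TPM in the vehicle libraries of isolations 48 and 54. Of the 15 calls in this list, 2 held without the vehicle library of isolation 54, 0 without that of isolation 75 or 77, and 8 or 9 without a BMP6 library.

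After the pulse, Lif, a cytokine, was at 0.17 and 0.08 TPM without and 1.16 and 1.75 TPM with BMP4, a fitted difference of 1.64, and at 0.16 and 0.27 TPM without and 0.57 and 0.63 TPM with BMP6 (0.62). It reached the level limit only through stimulated libraries, so these differences are given as a description, with no test.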

How the data were processed

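Library preparation, per the labels' protocols, selected poly(A) RNA from 500 ng per culture, kept strand information and gave single-end reads of 50 nt. The submitters' processing notes name STAR 2.7.11a, SAMtools 1.17 and GRCm39. TPM and FPKM values are the authors' StringTie 2.2.1 output against a merged annotation, per the file headers, run without multi-mapping correction and without a strand option, so paralogs and overlapping or antisense genes are uncertain. The authors' coverage signal per transcript, times its length over 50 nt, gave the estimated reads. TPM are shares of a library.

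Treatment labels gave the groups, and isolation and culture codes the columns. Loci whose mean reached 0.5 TPM entered limma 3.58.1 (R 4.3.3) on log2(TPM + 0.5), with 4 group means and a variance trend; fold changes on this scale understate those of low genes. Tests are two-sided and Benjamini-Hochberg adjusted with a threshold of 0.05, and the script was tested on simulated data. All groups share 1 spread per gene.

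Vehicle and stimulated library of an isolation carry the same isolation number in the labels. Across genes, the departures of paired libraries from the means of their groups had correlations of 0.707 (isolations 48 and 54) and 0.455 (75 and 77), and the isolation was the block of an alternative fit. No label used here says how many mice an isolation pooled. Without the block, p values measure the spread between isolations of a group. With it, they measure how far the differences within pairs vary between isolations. The fit without the block counts both libraries of an isolation as independent, although their departures were correlated. Its p values for the vehicle comparison can therefore be too small. Fitted on the 4 vehicle libraries alone, 6 members and 17.0% of all loci passed, in place of 9 and 27.2%.

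Members and lists were chosen with earlier results of these data known. Named with all values were Trp53, Mdm2, Mdm4, every called member and the 3 largest changes of each comparison. Of the other genes, the rule took Cdkn1a, every called one and the 2 largest changes in the BMP4, BMP6 and vehicle comparisons. Many of these other genes are given by their vehicle difference alone. Further members were named after their values were seen. Some genes of these lists are not reported here. Alternatives covered the pseudocount (0.1, 2), the level limit (none, 2), FPKM, median centring, voom and left-out libraries. Voom scaled by library totals, and leaving out both libraries of an isolation without the block, were added after the data were seen. Promoters are from RefSeq (GRCm38.p6).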

Additional observations from a re-analysis of the deposited data

How the results depend on the processing

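The isolation as a replicate block moved the members called after BMP4 from 0 to 1 and changed no count after BMP6, in the mean response or in the difference. Blocked fits without 1 isolation keep 1 pair for 1 of the ligands, so their counts are not given. Blocked voom called 3 after BMP4 and 1 in the mean response, beside 6.15% and 2.05% of all loci. No paired analysis was possible for the vehicle comparison because isolations are nested in experiments. Its 9 calls became 1 with no limit on low values (31741 loci tested) and 0 to 16 with libraries left out; both pseudocounts, FPKM, median centring and voom also gave 9, though under the last 3 of these Apaf1 did not pass and 4 members were higher and 5 lower; a limit of 2 TPM gave 7 of 28 members, and fitting the 4 vehicle libraries alone gave 6. Voom with TMM scaling was not run. The share of all loci called in the vehicle comparison changed too. From 27.2% in the full fit it went to 7.84% with no limit on low values. It was 31.0% at 2 TPM and 17.0% with the 4 vehicle libraries alone. FPKM, median centring and voom gave 25.9%, 29.7% and 24.9%, and pseudocounts of 0.1 and 2 gave 27.8% and 26.1%. Each fit with libraries left out kept 1 library in some group, so 0 to 16 is not read as a property of the members.

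Among 58 pairs of a named gene and a comparison, of which 24 were called without the block, those that changed sign were not called. Mdm4 turned to 0.000314 after BMP6 under blocked voom, and to -0.016 in the difference under median centring. In blocked fits without 1 isolation Mdm4 reached 0.15 after BMP4, 0.00928 after BMP6, 0.065 in the mean and -0.17 and -0.014 in the difference, and Cdkn1a 0.00575 after BMP6. With 1 library left out of the unblocked fit, log2 changes after BMP4 lay between -0.52 and 0.21 for Trp53, -0.39 and 0.32 for Mdm4, -0.046 and 1.07 for Pmaip1 and -0.59 and 0.34 for Cdkn1a. After BMP6 they lay between -0.11 and 0.18 for Trp53, -0.023 and 0.16 for Mdm2, -0.11 and 0.075 for Mdm4 and -0.13 and 0.024 for Cdkn1a. Mean responses lay between -0.24 and 0.12 for Trp53, -0.21 and 0.15 for Mdm4 and -0.033 and 0.63 for Btg2. Differences between ligands lay between -0.17 and 0.56 for Trp53 and -0.34 and 0.37 for Mdm4, and the Mdm2 vehicle difference between -0.11 and 0.25. The cause was not tested. At a depth of 48012825 estimated reads or more, the lowest members still had few reads per library. These were 8 to 27 for Perp, 5 to 89 for Fas, 30 to 94 for Dcxr, 33 to 79 for Pltp and 48 to 92 for Ddb2. How far read number or the spread between 2 isolations a group sets the precision was not tested.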
